A study of Mus musculus with 8 samples.

Results

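The genes described here are 33 immediate early and heat-shock genes of mouse microglia, named one by one and matched by gene symbol to a table of 46983 genes. All 33 were in the table and all 33 passed the filter on low values that left 22546 genes tested. They comprise 8 AP-1 and partner leucine zipper factors (Fos, Fosb, Fosl2, Jun, Junb, Jund, Atf3 and Maff), 3 Egr and 3 Klf zinc-finger factors, 3 Nr4a orphan nuclear receptors, 11 feedback regulators and other early genes, and 5 heat-shock chaperones. The rule that picked them used no measured value, but the list was drawn up with earlier results of these data known.

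RNA was sequenced from microglia, the resident macrophages of the brain, taken from the corpus callosum, in 8 libraries of FvB/C57BL6 hybrid mice. Every mouse carried Cx3cr1-CreER, a Cre recombinase made in cells that express the fractalkine receptor and switched on by tamoxifen, and at least 1 loxP-flanked allele of Qk, which encodes the RNA-binding protein Quaking. Mice given the name WT carried 1 flanked and 1 normal allele and mice given the name Qk-KO carried 2 flanked alleles, so that Cre and a flanked allele were shared by both groups. Tamoxifen was given at 8 weeks of age, and all mice then ate 0.2% cuprizone, a copper chelator that kills oligodendrocytes, for 6 weeks. Both groups used here had cuprizone, tamoxifen and Cre. Border macrophages and some monocytes also express Cx3cr1, so Cre need not have acted in microglia alone. How the cells were isolated and whether a library came from a single animal or a pool are not given in the labels. The p-values here set a group difference against the spread of libraries, and that spread may be technical.

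The sample names gave 4 WT and 4 Qk-KO libraries, but the genotype field contradicted the name of 4 of them. By that field WT 2 and WT 3 had 2 flanked alleles and Qk-KO 1 and Qk-KO 3 had 1. Libraries are called by their names throughout, and the other grouping is given where it changes a result. The gene-level value of Qk did not settle it: its regularized log2 value was 15.50, 15.38, 15.41 and 15.37 in WT 1 to 4 and 15.59, 15.40, 15.69 and 15.29 in Qk-KO 1 to 4, which differed by 0.079 ± 0.085 (SE, adjusted p = 0.819, limma). By the genotype field the difference, 2 flanked alleles minus 1, had the opposite sign, at -0.16 (unadjusted p = 0.059, adjusted p = 0.9995, limma). Those groups overlapped too. A gene-level value counts reads from all exons, so it need not show the loss of a flanked exon. Estimated library totals ran from 59.7 to 69.7 M reads (M, 1000000) in WT and from 43.9 to 58.5 M in Qk-KO, so the groups did not overlap in depth. All 10 microglia markers were detected in every library.

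Immediate early genes are transcribed within minutes of a stimulus, without new protein synthesis, from factors already present such as serum response factor and CREB. Many encode transcription factors, and others encode phosphatases and mRNA-decay proteins that shut the same pathways off. Heat-shock chaperones are induced by heat shock factor when proteins misfold. In microglia both groups of genes are known to respond to activating ligands and also to the warm enzymatic dissociation used in some isolation methods.

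Promoters are shown for the members on which the results turn. RefSeq promoter windows of the build GRCm38.p6, reaching from 250 bases before a start to 50 after it, were matched for 27 of the 33 members, in 37 windows; Egr1, Egr3, Hsp90aa1, Hspa8, Ier2 and Myc had no entry. The runs below end at the last base before the start, except for Nr4a3, and each is written 5′ to 3′ on the gene's own strand. Hspa1a and Hspa1b are neighbouring, nearly identical genes for the inducible HSP70 chaperone, and their runs lie at chr17:34972157-34972406 and chr17:34959239-34959488, both on the minus strand. The capitals mark GAANNTTC, an inverted pair of the units that heat shock factor recognises.
Hspa1a: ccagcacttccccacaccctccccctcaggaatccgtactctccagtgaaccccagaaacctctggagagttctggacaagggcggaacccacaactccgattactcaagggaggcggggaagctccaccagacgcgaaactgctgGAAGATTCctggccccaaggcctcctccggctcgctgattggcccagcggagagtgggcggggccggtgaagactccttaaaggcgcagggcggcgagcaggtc
Hspa1b: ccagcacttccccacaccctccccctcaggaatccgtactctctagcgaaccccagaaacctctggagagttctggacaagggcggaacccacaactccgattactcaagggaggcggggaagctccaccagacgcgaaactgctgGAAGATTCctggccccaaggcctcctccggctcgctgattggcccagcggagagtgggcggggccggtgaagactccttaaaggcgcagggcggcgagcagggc
The 2 runs were identical at 247 of 250 bases, and both held the match from base -104 to base -97 counted from the start. GAANNTTC reads the same on both strands. It was present in the windows of 4 of the 27 members (Fosl2, Hspa1a, Hspa1b and Jun), against 9.04% of the 27025 genes with a window.

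In the Nr4a genes, which encode orphan nuclear receptors, the capitals mark TGACG on either strand (CGTCA where it lies on the other strand), the core of the cyclic AMP response element. The runs lie at chr15:101266596-101266845 on the plus strand, chr2:57124004-57124253 on the minus strand and chr4:48045055-48045152 on the plus strand.
Nr4a1: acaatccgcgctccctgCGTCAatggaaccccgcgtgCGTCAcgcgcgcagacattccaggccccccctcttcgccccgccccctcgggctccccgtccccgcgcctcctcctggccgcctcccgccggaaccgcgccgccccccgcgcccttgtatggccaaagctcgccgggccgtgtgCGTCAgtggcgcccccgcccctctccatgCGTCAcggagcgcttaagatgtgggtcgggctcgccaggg
Nr4a2: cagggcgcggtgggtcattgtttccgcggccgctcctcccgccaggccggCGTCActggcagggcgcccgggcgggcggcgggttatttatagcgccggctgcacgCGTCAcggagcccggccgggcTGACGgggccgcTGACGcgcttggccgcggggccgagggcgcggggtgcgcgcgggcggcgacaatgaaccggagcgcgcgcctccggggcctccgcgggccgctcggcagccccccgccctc
Nr4a3: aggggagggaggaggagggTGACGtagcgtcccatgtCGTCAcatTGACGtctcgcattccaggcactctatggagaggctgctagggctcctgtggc
The run of Nr4a3 holds only the first 98 bases of its window and ends well before the start, because an annotated exon of the gene begins there. Nr4a1, Nr4a2 and Nr4a3 each held 4 matches in a 300-base window, of which the run of Nr4a3 shows 3. At least 4 matches were present in 76 of all 32851 windows, or 0.231%. TGACG was found in 17 of the 27 members (63.0%) and in 23.0% of all genes with a window. The full palindrome TGACGTCA, in which TGACG lies on both strands, was found in Btg2, Dusp1 and Maff and in 2.03% of all genes. Member windows were richer in G and C, with a median of 63.7% against 52.7% over all windows.

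Egr2, a zinc-finger factor, is shown because it is the member whose WT and Qk-KO values did not overlap, and the capitals mark a CArG box, the element bound by serum response factor. The run, 1 of 5 windows of the gene, lies at chr10:67537619-67537868 on the plus strand.
Egr2: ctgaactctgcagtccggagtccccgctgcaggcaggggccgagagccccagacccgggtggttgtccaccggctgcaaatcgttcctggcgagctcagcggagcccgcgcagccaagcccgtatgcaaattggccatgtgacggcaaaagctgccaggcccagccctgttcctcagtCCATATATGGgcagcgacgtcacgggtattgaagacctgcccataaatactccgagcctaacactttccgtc
The box lay from base -72 to base -63. A CArG box was found in the windows of Egr2 and Zfp36 among the members and in 1.81% of all genes. A match describes letters and says nothing of binding.

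Levels between genes were compared as counts per 1000000 (CPM) per kilobase of exon, from the authors' mean over the 8 libraries. Junb stood highest at 1403 CPM per kb, followed by Atf3 at 784, Zfp36 at 737, Fos at 689 and Jun at 658. Jund stood at 450, Btg2 at 413, Hspa8 at 383 and Dusp1 at 344. The order is of means over all libraries and was not tested, and the gaps among Zfp36, Fos and Jun are small. At the other end stood Egr3 at 0.721, Nr4a2 at 1.20 and Nr4a3 at 2.21 CPM per kb, with Fosl2 at 8.83. Within the families, Nr4a1 stood at 118 CPM per kb and Egr1 at 109, far above the other Nr4a and Egr genes. The 33 genes together held 22722 CPM, or 2.27% of the signal, and their sum ran from 18496 to 24600 CPM in WT and from 19962 to 25827 in Qk-KO.

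The leading members thus belonged to AP-1, a dimer of Fos and Jun proteins, and to the feedback arm: Zfp36 encodes tristetraprolin, which destabilises cytokine mRNAs, and Dusp1 a phosphatase that inactivates MAP kinases. In bulk RNA, fewer cells of a type and less RNA per cell cannot be told apart, so a value describes the whole preparation.

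Between the named groups no member was called. At an adjusted p under 0.05, limma called 0 of 33 members against 0.00444% of all genes tested, which is 1 gene (C1qtnf5), and the authors' deposited table called 0 of 33 against 1.22% of its genes. At an unadjusted p under 0.05, limma gave 2 of 33 members, Egr1 and Egr2, against 8.26% of all genes tested. The authors' deposited table gave the same 2 genes, against 6.49% of its genes. The smallest adjusted p of a member was 0.444 (limma). The groups did not overlap for 1 of 33 members (Egr2, lower in Qk-KO), against 5.73% of all genes tested, of which 2.7% were lower and 3.04% higher in Qk-KO. The Qk-KO mean was higher for 22 members and lower for 11, with a median difference of 0.12 on the log2 scale, against 48.8% higher and a median of -0.0044 over all genes tested. Of the 8447 tested genes of at least 10 CPM, 4699 were higher in the Qk-KO mean, with a median difference of 0.016. Of these 8447 genes, 1021 had an unadjusted p under 0.05 (limma). Without overlap were 409 higher and 302 lower in Qk-KO. When each library was centred on its median over the tested genes, the split was 27 higher to 6 lower and the median difference 0.20. Without WT 4 the split was 17 to 16 and the median 0.02, and without Qk-KO 3 the split was 18 to 15. Grouped by the genotype field, the members had 0 calls, 0 unadjusted p under 0.05 (2.67% of all genes tested) and 0 groups without overlap (1.85%), a split of 16 higher to 17 lower and a median difference of -0.0054.

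**Figure D1:**
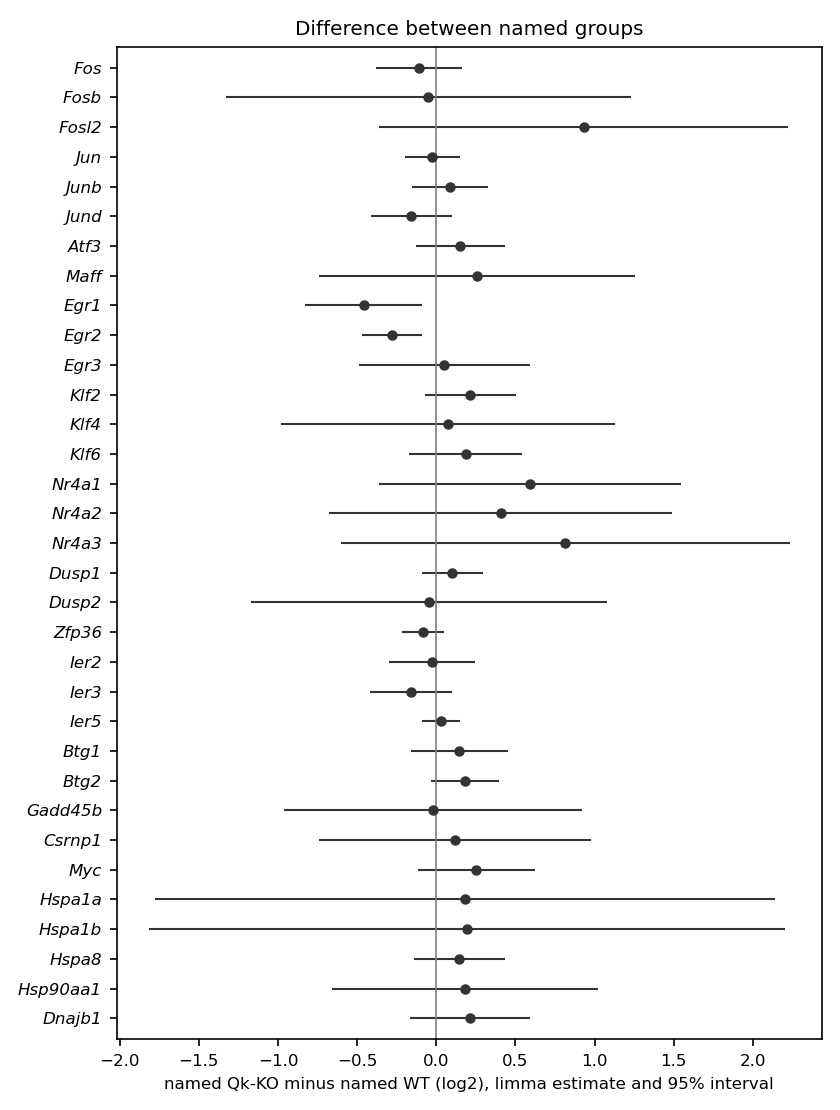
Difference between the 4 Qk-KO and 4 WT libraries, by sample name, for each of the 33 members, on the log2 scale (x axis); points are limma estimates and lines 95% intervals for a single gene, not adjusted over genes. Only the intervals of Egr1 (-0.46) and Egr2 (-0.28) leave out 0, and the intervals of Hspa1a, Hspa1b, Nr4a3, Fosl2 and Fosb are the widest.

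Egr1 and Egr2 had the lowest unadjusted p of the members. Egr1, whose protein binds GC-rich promoters soon after growth factor or calcium signals, had log2 values of 14.81, 14.97, 14.87 and 15.17 in WT 1 to 4 and of 14.90, 14.04, 14.49 and 14.56 in Qk-KO 1 to 4. The groups overlapped through Qk-KO 1, and WT 4 was the highest of all 8 libraries. The difference was -0.46 ± 0.16 (SE), with an unadjusted p of 0.021 and an adjusted p of 0.522 (limma). The authors' deposited table gave -0.43 with an adjusted p of 0.203. By the genotype field the difference was -0.23 (adjusted p = 0.9995, limma).

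Egr2, which in myeloid cells is induced together with Egr1, had log2 values of 12.19, 12.33, 12.07 and 12.04 in WT and of 11.99, 11.89, 11.93 and 11.69 in Qk-KO. Every Qk-KO library lay below every WT library, though WT 4 and Qk-KO 1 were only 0.05 apart. The difference was -0.28 ± 0.08 (SE), with an adjusted p of 0.444 (limma), and -0.29 with an adjusted p of 0.138 in the authors' deposited table. By the genotype field it was -0.043 (adjusted p = 0.9995, limma). Egr3, a close relative at 3.17 CPM, had a difference of 0.051 and was highest in Qk-KO 1 at 8.21.

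Of the 8 members with the largest differences, the first 3 in size were Fosl2, Nr4a3 and Nr4a1, all higher in the Qk-KO mean and none past the test. Fosl2, which encodes the AP-1 subunit Fra-2, had log2 values of 11.63, 12.06, 11.83 and 10.50 in WT and of 13.42, 12.02, 13.02 and 11.28 in Qk-KO. Qk-KO 1 and Qk-KO 3 stood above all WT libraries, and Qk-KO 2 and Qk-KO 4 lay within the WT range. The difference was 0.93 ± 0.55 (SE, adjusted p = 0.686, limma), and with 1 library left out at a time it ran from 0.59 without WT 4 to 1.32 without Qk-KO 4, where the adjusted p was 0.288 (limma).

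The Nr4a receptors shared their highest library, Qk-KO 1, with Fosl2. Nr4a3 had log2 values of 8.96, 9.29, 9.14 and 7.82 in WT and of 10.89, 8.86, 10.31 and 8.41 in Qk-KO, and the groups differed by 0.81 ± 0.61 (SE, adjusted p = 0.733, limma). Nr4a1, which encodes Nur77, had 14.25, 14.52, 14.57 and 13.05 in WT and 15.14, 14.55, 15.11 and 13.97 in Qk-KO, which differed by 0.59 ± 0.41 (SE, adjusted p = 0.714, limma). In both genes Qk-KO 1 and Qk-KO 3 were the 2 highest libraries and WT 4 the lowest. With 1 library left out at a time, the difference of Nr4a3 ran from 0.39 (without Qk-KO 1) to 1.22 (without Qk-KO 4) and that of Nr4a1 from 0.24 (without WT 4) to 0.83 (without Qk-KO 4).

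Nr4a2, which encodes Nurr1, had 7.71, 8.05, 8.08 and 6.98 in WT and 9.20, 7.73, 8.57 and 6.95 in Qk-KO, which differed by 0.41 ± 0.47 (SE, adjusted p = 0.835, limma). Qk-KO 1 and Qk-KO 3 were again its 2 highest libraries, and Qk-KO 4 was level with WT 4. Its difference ran from 0.044 without Qk-KO 1 to 0.79 without Qk-KO 4. The 2 libraries that held the highest Nr4a values, Qk-KO 1 and Qk-KO 3, are those that the genotype field gives 1 flanked allele. By that field the difference, 2 flanked alleles minus 1, was -0.35 for Fosl2, -0.57 for Nr4a3 and -0.41 for Nr4a2, each of the opposite sign to the comparison by name, and 0.017 for Nr4a1. The adjusted p was 0.9995 for each of the 4 (limma).

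Maff and Myc complete the 8. Maff, a small Maf protein that pairs with other leucine zipper factors, had log2 values of 12.16, 12.25, 12.01 and 11.05 in WT and of 12.92, 11.89, 12.51 and 11.17 in Qk-KO, and its difference was 0.26 ± 0.43 (SE, adjusted p = 0.892, limma). Its groups overlapped widely. Myc, a growth-promoting factor, had 11.17, 11.17, 11.25 and 10.74 in WT and 11.45, 11.52, 11.48 and 10.88 in Qk-KO, and its difference was 0.25 ± 0.16 (SE, adjusted p = 0.697, limma).

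In Myc libraries 1 to 3 of Qk-KO lay above all WT libraries, while Qk-KO 4 lay below WT 1, WT 2 and WT 3. With WT 4 and Qk-KO 4 left out, a choice made after the values were seen, its difference was 0.29 with an adjusted p of 0.122 (limma), the smallest of any member under any setting tried.

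**Figure D2:**
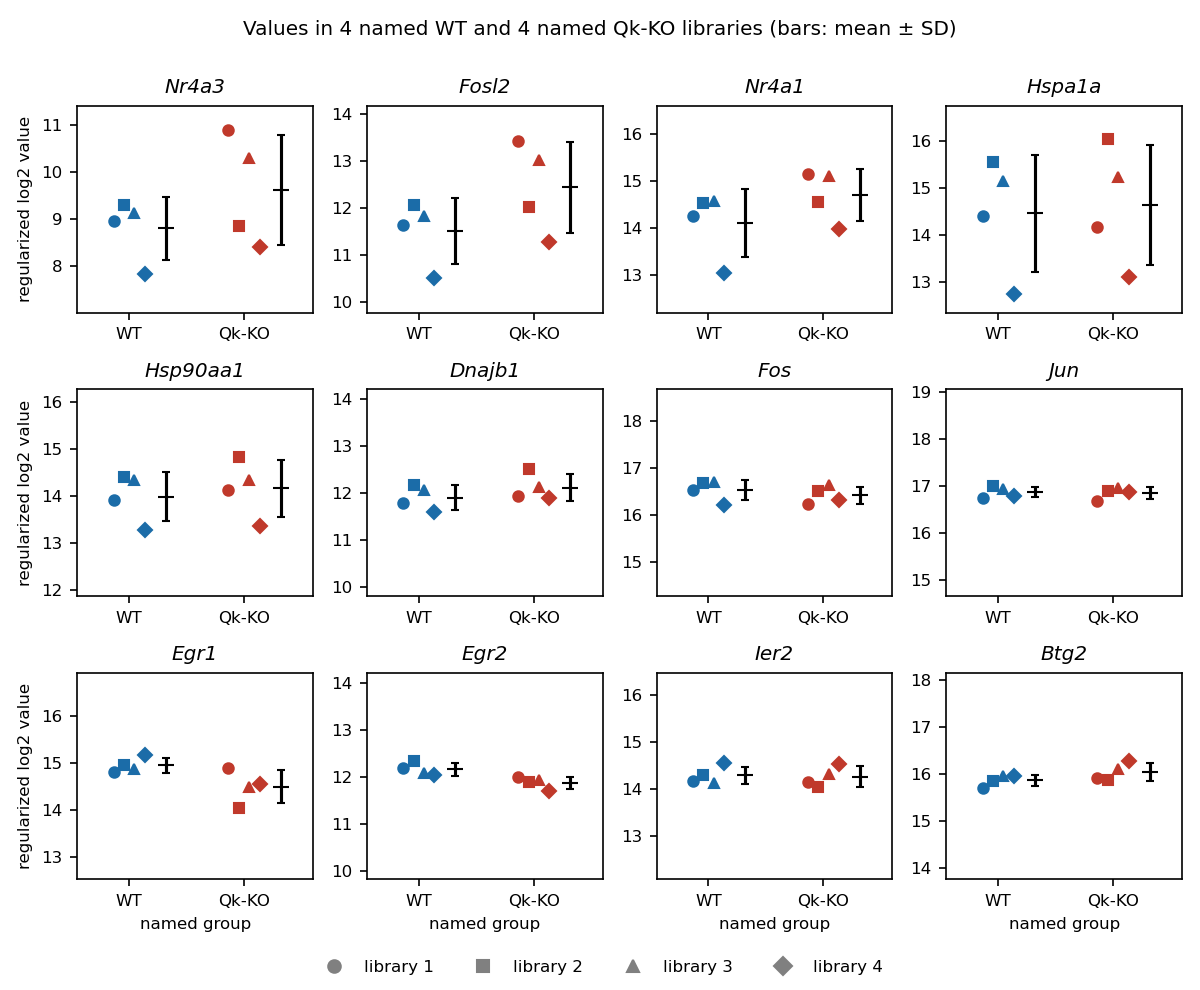
Regularized log2 values (y axes, which differ in position but span an equal height) of 12 members in the 4 WT and 4 Qk-KO libraries, by sample name; symbols give the library number, and bars the group mean ± SD. Library 4 is the lowest of its group for Nr4a3, Fosl2, Nr4a1, Hspa1a, Hsp90aa1 and Dnajb1, while for Egr1 WT 4 is the highest library at 15.17.

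The larger pattern lay between libraries and not between groups. Of the 33 members, 15 had a range over the 8 libraries above 1 on the log2 scale, a doubling, against 6.49% of the 8447 tested genes of at least 10 CPM and 22% of all genes tested. Egr3 and Nr4a2, both among the 15, have means under 10 CPM. The median range of the members was 0.87, against 0.34 for the genes of at least 10 CPM and 0.55 for all genes tested, and 17 members lay at or above 0.80, the 90th percentile over the genes of at least 10 CPM. WT 4 and Qk-KO 4 were the 2 lowest libraries for 21 of 33 members, against 14.9% of the genes of at least 10 CPM and 9.71% of all genes tested. WT 4 alone was the lowest for 17 of 33 members and Qk-KO 4 for 9. Of the 8447 genes of at least 10 CPM, WT 4 was the lowest for 1849 and Qk-KO 4 for 1825. This pair of libraries was picked out after the values were seen, so the counts describe the pattern and carry no test.

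Among the heat-shock chaperones, Hspa1a and Hspa1b had the widest ranges of all 33 members. Hspa1a had log2 values of 14.40, 15.54, 15.14 and 12.75 in WT and of 14.16, 16.04, 15.24 and 13.10 in Qk-KO. The highest library, Qk-KO 2, stood 9.81-fold above the lowest, WT 4, while the difference between groups was 0.18 ± 0.83 (SE, adjusted p = 0.965, limma). Hspa1b had 14.34, 15.57, 15.13 and 12.71 in WT and 14.08, 16.10, 15.27 and 13.09 in Qk-KO, a 10.5-fold range with the same order of libraries.

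The agreement of these 2 genes is in part built in, because 58.8% of the 50-base words of Hspa1a transcripts also occur in Hspa1b and reads from such stretches cannot be assigned to 1 of them. Hsp90aa1, the inducible HSP90, had 13.92, 14.40, 14.34 and 13.27 in WT and 14.12, 14.82, 14.35 and 13.36 in Qk-KO. Dnajb1, the HSP40 partner that loads clients onto HSP70, had 11.78, 12.18, 12.07 and 11.59 in WT and 11.94, 12.52, 12.13 and 11.89 in Qk-KO.

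Hspa8, the constitutive HSP70, had the narrowest range of the 5, 0.65, with 16.52, 16.55, 16.57 and 16.08 in WT and 16.57, 16.73, 16.68 and 16.32 in Qk-KO. All 5 chaperones were highest in Qk-KO 2 and lowest in WT 4, and all 5 differences between groups were above 0, from 0.15 to 0.21, with 0 called. Without Qk-KO 2 the differences of Hspa1a, Hspa1b and Hsp90aa1 turned to -0.29, -0.30 and -0.039, and without WT 4 to -0.39, -0.38 and -0.058. Without Qk-KO 3 those of Hspa1a and Hspa1b turned to -0.021 and -0.018. Of the 50-base words of Hsp90aa1 and Hspa8, 47.5% and 39.4% occur in other genes, mostly in a processed copy of each, so these levels are uncertain.

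**Figure D3:**
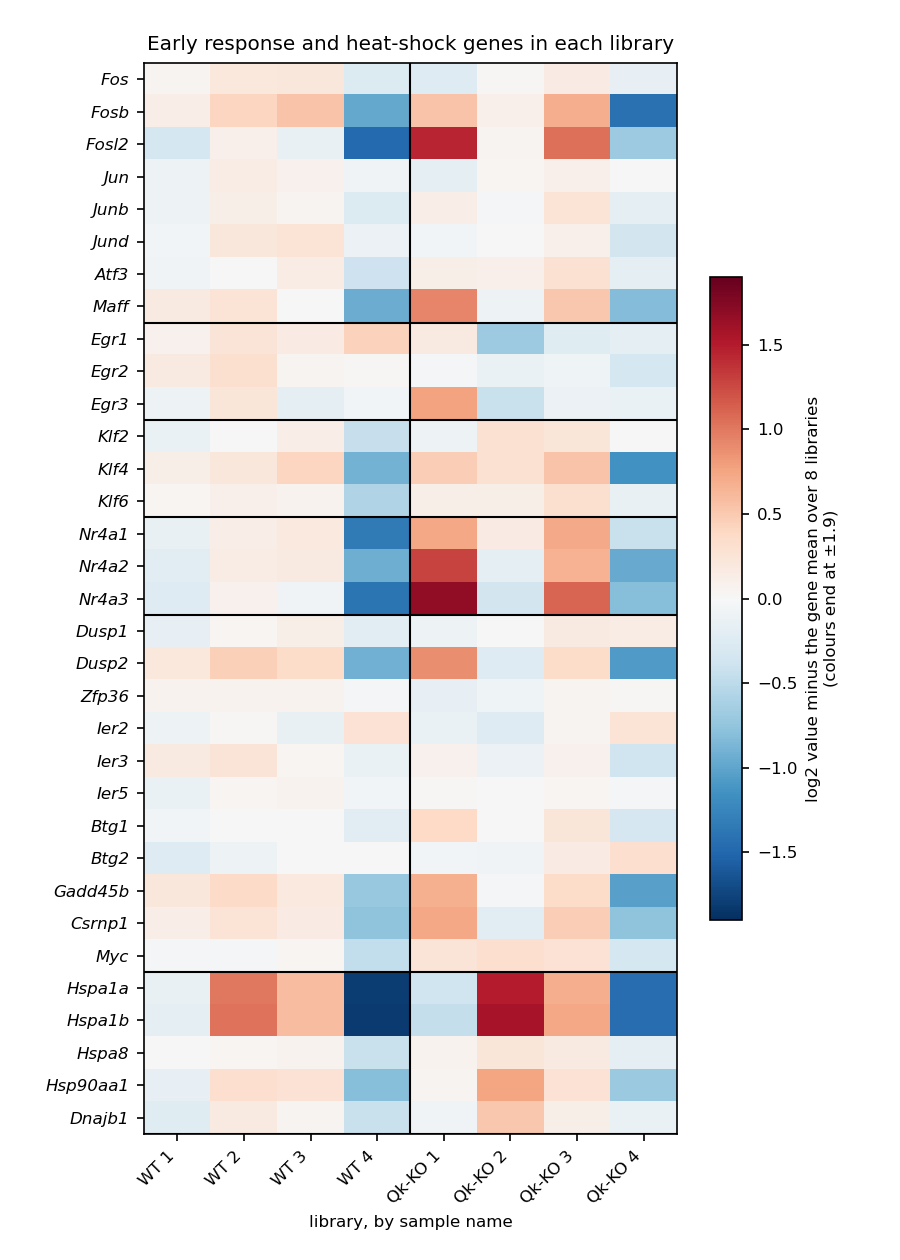
Value of each of the 33 members (rows, grouped by role) in each of the 8 libraries (columns, by sample name), as the log2 value minus the gene's mean over the 8 libraries; red is above the mean and blue below. The columns of WT 4 and Qk-KO 4 are blue for most rows, Qk-KO 1 is the reddest for the Nr4a genes and Fosl2, and Qk-KO 2 for Hspa1a and Hspa1b.

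The Nr4a genes and the chaperones were low in the same libraries and high in different ones. Qk-KO 1 was the highest library for 10 of 33 members. It was also the highest for 1920 of the 8447 tested genes of at least 10 CPM and for 3294 of all 22546 genes tested. The 10 members were Nr4a1, Nr4a2, Nr4a3, Fosl2, Maff, Egr3, Csrnp1, Gadd45b, Dusp2 and Btg1. All 10 are early response genes, as are 28 of the 33 members. In Qk-KO 1 the mean deviation from the gene mean was 1.24 over the 3 Nr4a genes and -0.16 over the 5 chaperones. In Qk-KO 2 it was -0.12 over the Nr4a genes and 0.91 over the chaperones. In WT 4 both were low, at -1.22 and -1.05, and in Qk-KO 4 at -0.73 and -0.78.

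Of the 8 AP-1 and partner genes, 6 had WT 4 and Qk-KO 4 as their 2 lowest libraries, and Fos and Jun did not. Fosb, a Fos relative, had 14.15, 14.43, 14.57 and 13.05 in WT and 14.56, 14.12, 14.71 and 12.61 in Qk-KO, a range of 2.10. Fos itself had a range of 0.47 and Jun of 0.33, and their differences were -0.11 and -0.025. Between the highest and the lowest library Fosl2 differed 7.60-fold and Fosb 4.30-fold, while Fos differed 1.39-fold and Jun 1.25-fold. Junb had a difference of 0.087 and a range of 0.51, and Atf3, a stress-induced partner of Jun, 0.15 and 0.67.

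Jund had a difference of -0.16 and a range of 0.60. An antisense gene covers 52.6% of the exon bases of Jund, and no source used here says whether counting used strand, so its level is uncertain. Reads from Jun, Junb, Csrnp1 and Zfp36 overlap antisense or opposite-strand exons over 3.60% to 7.52% of their exon bases, and those from Hspa1a over 19.0%. Fos, Fosb, Fosl2 and the Egr and Nr4a genes shared under 1% of their 50-base words with any other gene.

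The Klf zinc-finger factors had differences of 0.22 for Klf2, 0.073 for Klf4 and 0.18 for Klf6, with 0 called. Klf4 had the widest range of the 3, 1.68, and its lowest libraries were Qk-KO 4 at 11.67 and WT 4 at 11.92. The other 6 libraries of Klf4 lay between 12.92 and 13.35. Klf2 and Klf6 had ranges of 0.72 and 0.87, and both were lowest in WT 4.

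The feedback regulators ran from steady to varying. Ier5, Zfp36 and Dusp1 were the steadiest, with ranges of 0.19, 0.23 and 0.37 and differences of 0.029, -0.082 and 0.10. Btg1 and Btg2, antiproliferative partners of the mRNA deadenylase, had differences of 0.14 and 0.18, and Ier3 of -0.16. The ranges of Btg1, Btg2 and Ier3 lay between, at 0.70, 0.56 and 0.61. Dusp2, a nuclear MAP kinase phosphatase, Gadd45b, a stress sensor, and Csrnp1, a nuclear factor, had ranges of 1.95, 1.72 and 1.49, with group differences from -0.046 to 0.12. Csrnp1 lies within the annotated span of Cx3cr1, on the same strand and with 0 shared exon bases.

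Ier2 and Btg2 did not share the low libraries. Ier2 had 14.17, 14.30, 14.14 and 14.54 in WT and 14.15, 14.03, 14.33 and 14.54 in Qk-KO, so that WT 4 and Qk-KO 4 were its 2 highest libraries. Btg2 was highest in Qk-KO 4 at 16.28 and lowest in WT 1 at 15.72.

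**Figure D4:**
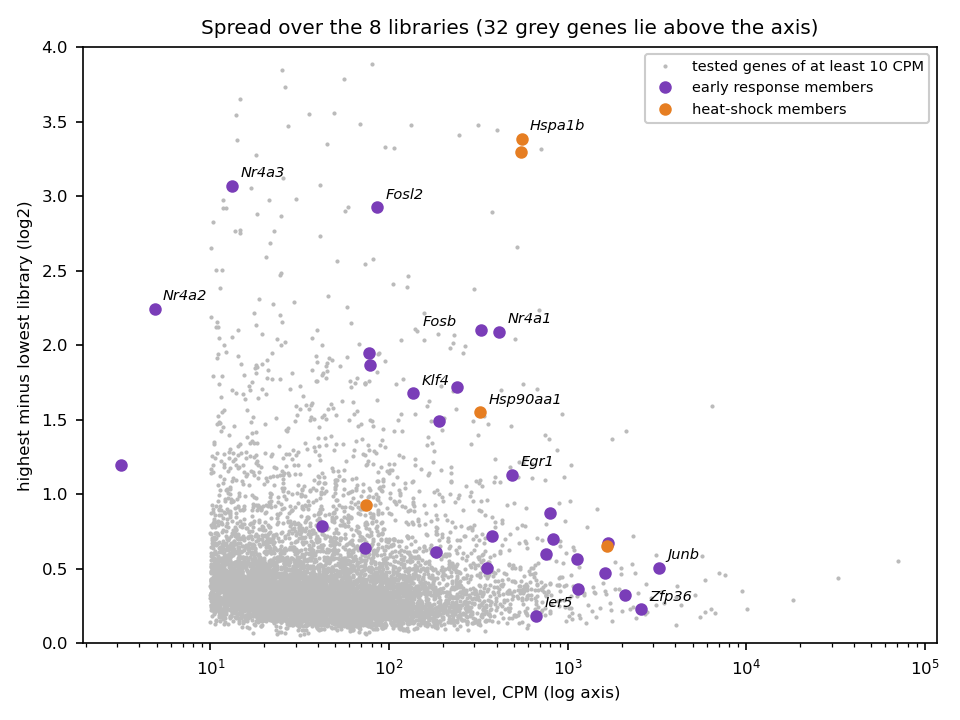
Highest minus lowest library on the log2 scale (y axis) against mean level in CPM (log x axis) for the 33 members (purple, early response; orange, heat-shock) and for tested genes of at least 10 CPM (grey). Hspa1a, Hspa1b, Nr4a3 and Fosl2 lie near or above 3, while Ier5, Zfp36 and Jun lie below the grey median of 0.34.

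Markers of some other cells, but not of all, moved with WT 4 and Qk-KO 4. All 8 oligodendrocyte markers and all 8 astrocyte markers had these as their 2 highest libraries, against 11.5% of all genes tested. The summed oligodendrocyte markers stood at 310 CPM in WT 4 and 264 in Qk-KO 4, in ranges of 131 to 310 in WT and 125 to 264 in Qk-KO. The summed astrocyte markers ranged from 207 to 545 CPM in WT and from 85.2 to 504 in Qk-KO. Of the 8 neutrophil and 6 monocyte markers, 6 and 4 had WT 4 and Qk-KO 4 as their 2 lowest libraries, like most members. All 8 and all 6 were highest in WT 2, which was the highest library for 4 of 33 members. The summed neutrophil markers stood at 335 CPM in WT 2 and at most at 71.6 in any other library. The summed monocyte markers stood at 88.5 CPM in WT 2 and at most at 54.0 in any other library. Of the 8 neuron markers 4 had the pair as their 2 highest libraries, and of the 8 endothelial and 8 border-associated macrophage markers 0 had it as the 2 highest or the 2 lowest. None of these markers had a mean signal of 0. The part of these cells and of depth in the member values was not tested. Microglia markers differed between the named groups instead: their sum ran from 17985 to 19588 CPM in WT and from 14523 to 17043 in Qk-KO. Of the 10, 5 were without overlap, all lower in Qk-KO (Csf1r, Cx3cr1, Sall1, Itgam and P2ry12). Over all genes tested, 2.7% were without overlap and lower in Qk-KO. Grouped by the genotype field, 0 of the 10 microglia markers were without overlap, against 1.85% of all genes tested. The median difference of the 10 markers was then 0.0087, against -0.18 by name. The authors' deposited table called Csf1r (adjusted p = 0.0033), Cx3cr1 (0.0017) and Sall1 (8.7e-05) lower, and limma called 0. Their part in the group differences of the members was not tested either.

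**Figure D5:**
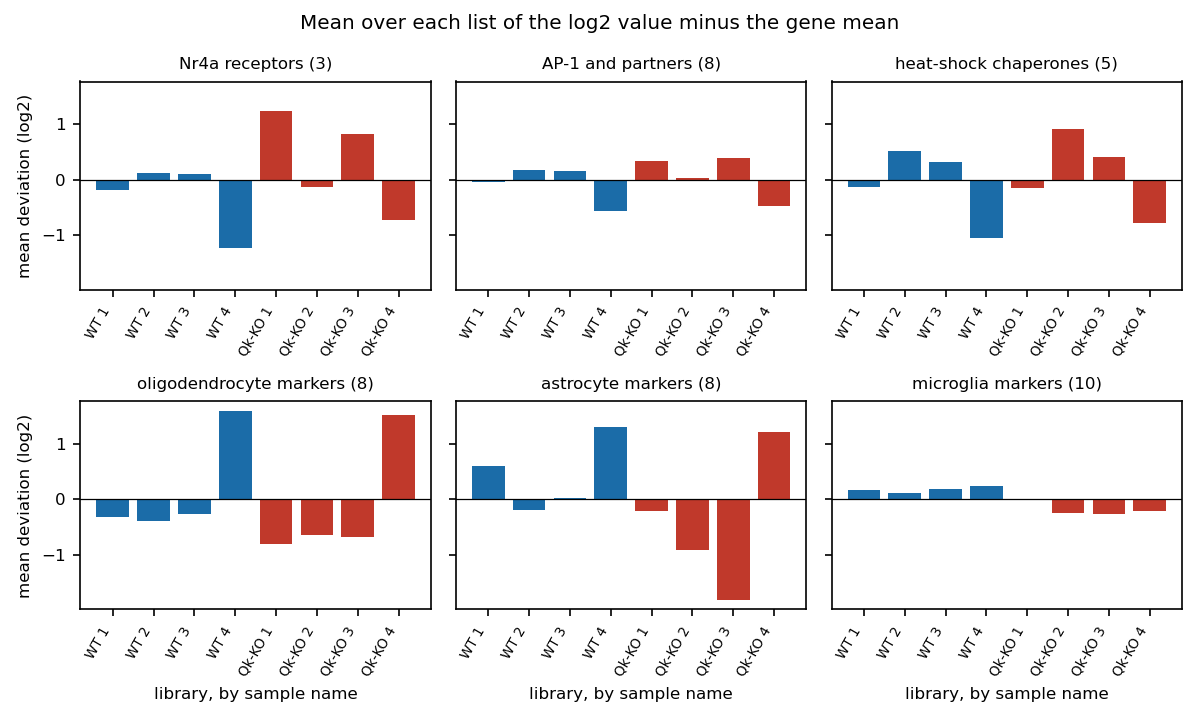
Mean over a list of the log2 value minus the gene's mean (y axis) in each of the 8 libraries (x axis, by sample name), for 3 groups of members (top) and 3 marker lists (bottom), with the number of genes in brackets; there are no error bars because a bar is 1 library. In WT 4 the mean is -1.22 for the Nr4a genes and -1.05 for the chaperones, and it is positive for the oligodendrocyte and astrocyte markers.

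With WT 4 and Qk-KO 4 left out together, the median difference of the 33 members stayed at 0.12, the Qk-KO mean was higher for 24 and lower for 9, and 0 were called. At an unadjusted p under 0.05 there were then 4 members: Egr2 at -0.26, Nr4a1 at 0.48, Btg1 at 0.23 and Myc at 0.29. Over all genes tested 13.5% passed that threshold in the same fit, close to the share of the members.

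Other genes of the same pathways were taken from 3 lists. For comparison, the authors' deposited table called 1.22% of its genes, and the groups did not overlap for 5.73% of all genes tested. By the genotype field the share without overlap was 1.85% of all genes tested, so a count of 0 in a short list says little. Of 30 other early response genes, limma called 0 and the authors' deposited table called 1, Sgk1, a kinase induced by glucocorticoids and serum. Sgk1 had log2 values of 15.85, 15.75, 15.85 and 15.92 in WT and of 16.22, 16.17, 16.26 and 15.96 in Qk-KO, with no overlap, and a difference of 0.31 ± 0.07 (SE, adjusted p = 0.359, limma). The adjusted p in the authors' deposited table was 0.019.

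Plk3, a stress-responsive kinase, was also without overlap, with a difference of 0.20 ± 0.06 (SE, adjusted p = 0.443, limma). Npas4, an activity-regulated factor best known in neurons, was without overlap in the other direction, at -0.83 ± 0.24 (SE, adjusted p = 0.444, limma) and a mean of 1.24 CPM. After Npas4, the largest differences were those of Ptgs2 (0.66), the inducible prostaglandin synthase, and Nfil3 (0.50), a leucine zipper repressor, and neither passed. Over the 30 genes the median difference was 0.13, and 13 had WT 4 and Qk-KO 4 as their 2 lowest libraries. Grouped by the genotype field, 0 of the 30 were without overlap and the median difference was -0.11.

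Of 23 upstream kinases and factors, limma called 0 and the authors' deposited table called 2. Creb1, which binds the cyclic AMP response element, was higher in Qk-KO by 0.19 (adjusted p = 0.031 in the authors' deposited table, 0.388 by limma). Elk3, an Ets partner of serum response factor, was lower, with a difference of -0.24 (adjusted p = 0.044 in the authors' deposited table, 0.388 by limma). Creb1 and Elk3 did not overlap between the groups, and neither did Mapk3, which encodes the kinase ERK1, at -0.15.

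The largest differences of that list were those of Crem (0.41), a relative of Creb1, Mapk8 (0.32), the kinase JNK1, and Elk3. The median over the 23 genes was -0.02. Grouped by the genotype field, 0 of the 23 were without overlap and the median difference was -0.057.

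Of 32 other chaperones and heat-shock factors, 0 were called by limma or by the authors' deposited table and 0 were without overlap. At an unadjusted p under 0.05, limma gave 3 of 32, close to the 8.26% of all genes tested. These were Hspb8 at -0.88, Hspb1 at 0.47 and Hspa2 at 0.24. Hspb8, Cryab (-0.51), both small heat-shock proteins, and Hspb1 had the largest differences. Hsph1, the nucleotide exchange partner of HSP70, was named after its values were seen: like the 5 member chaperones it was highest in Qk-KO 2 (11.58) and lowest in WT 4 (9.85). The median over the 32 genes was 0.06, and 11 had WT 4 and Qk-KO 4 as their 2 lowest libraries. Grouped by the genotype field, 0 of the 32 were without overlap and the median difference was -0.0081.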

How the data were processed

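RNA-seq values of 8 microglia libraries, 4 named WT and 4 named Qk-KO, were read from a single table. Per the submitters' processing notes the tools were FastQC, HISAT2, StringTie and DESeq2, on the build mm10; their versions, their roles and the gene annotation are not stated there. The authors deposited, for each of the 8 libraries, log2 values that behave as regularized log2 values, shrunken towards the gene mean at low counts, so fold changes of low genes are understated. The deposited mean signal is an average of counts scaled for depth, and 56.7925 of its units equal 1 CPM. The authors' own log2 fold change, its score (the test statistic), p-value and adjusted p-value are deposited beside them and are quoted as the authors' deposited table.

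Because the values are not counts, no count model was run. Genes that, off the log2 scale, reached a normalized value of 1 in 4 or more libraries, 22546 of the 27486 genes with reads, were fitted with limma 3.58.1 under R 4.3.3 (trend and robust options on), and p-values were adjusted by the Benjamini-Hochberg method over all of them. The fit was tested on simulated data. Depth was estimated from genes read in a single library, 218 to 447 per library, whose values were whole multiples of 1 read within 1%. Exon lengths, overlaps and shared 50-base words came from GENCODE M21, and promoters from RefSeq.

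The members and lists were chosen with earlier results of these data known. Named in full were members that were called, members without overlap and the 8 with the largest difference at 1 CPM or more. From the 3 related lists the called or non-overlapping genes and the 3 with the largest difference were named. Alternatives changed the filter, variance model, scaling, block, grouping and libraries.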

Additional observations from a re-analysis of the deposited data

Results flagged for a closer look

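For 33 genes in each of 2 named groups, the lowest and the highest of the 4 libraries were compared with the rest, giving 66 checks. A library stood apart when its gap to the nearest other library took more than 0.829 of the group's range. Chance alone gives about 1 such group in 20, and 8 groups were found, all with library 4 as the lowest. In the WT group, WT 4 stood at 17.10 for Zfp36 (others 17.21 to 17.22), at 16.08 for Hspa8 (others 16.52 to 16.57) and at 14.86 for Klf6 (others 15.48 to 15.53). It stood at 12.55 for Csrnp1 (others 13.44 to 13.57), at 12.91 for Gadd45b (others 13.82 to 14.00) and at 10.74 for Myc (others 11.17 to 11.25). In the Qk-KO group, Qk-KO 4 stood at 11.67 for Klf4 (others 13.10 to 13.35) and at 10.88 for Myc (others 11.45 to 11.52). All are regularized log2 values. The checks share libraries and are not independent of each other. For Zfp36 the gap was 0.11 on the log2 scale, with the other 3 libraries close together.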

How the results depend on the processing

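No member was called under any setting tried. Over all genes limma called 1 in the reported fit, 0 at a mean of at least 1 CPM, 0 grouped by the genotype field, 4 with WT 4 and Qk-KO 4 left out (chosen after seeing the data), and 0 (without Qk-KO 3) to 7 (without Qk-KO 4) when each library was left out in turn. With the replicate number as a block the count was 1. At an unadjusted p under 0.05, the block gave 12 of 33 members and 2924 of all genes, against 2 and 1863 without it. The numbers were not taken to pair the samples, because no source used here says that they do. Across genes, deviations from the group means correlated at 0.035, 0.0027, 0.19 and 0.27 for numbers 1 to 4. The 0.27 was the highest of any WT and Qk-KO library, and WT 3 correlated best with Qk-KO 3. WT 1 correlated best with Qk-KO 2 (0.19) and WT 2 with Qk-KO 3 (0.037). These values do not settle whether the numbers pair the samples. Centring each library on its median turned Fosb (0.026), Jun (0.052), Ier2 (0.049), Dusp2 (0.031) and Gadd45b (0.055) from below to above 0. Leaving out WT 4 and Qk-KO 4 did so for Fosb (0.080) and Gadd45b (0.076). Grouping by the genotype field turned 14 members, to 0.15 for Fos, 0.13 for Jun, 0.057 for Jund, 0.043 for Zfp36, -0.35 for Fosl2, -0.017 for Junb, -0.25 for Egr3, -0.41 for Nr4a2, -0.57 for Nr4a3, -0.11 for Klf4, -0.17 for Btg1, -0.33 for Maff, -0.28 for Csrnp1 and -0.0054 for Myc. With single libraries left out, 20 members kept their direction in all 8 fits. The other 13 changed it at least once, with ranges of -0.38 to 0.41 for Fosb, -0.064 to 0.033 for Jun, -0.20 to 0.20 for Egr3, -0.12 to 0.057 for Ier2, -0.0061 to 0.056 for Ier5, -0.36 to 0.30 for Dusp2, -0.39 to 0.69 for Hspa1a, -0.38 to 0.71 for Hspa1b, -0.058 to 0.45 for Hsp90aa1, -0.21 to 0.47 for Klf4, -0.017 to 0.57 for Maff, -0.12 to 0.39 for Csrnp1 and -0.27 to 0.32 for Gadd45b. The median of the members ran from 0.02 without WT 4 to 0.26 without Qk-KO 4. The cause of these changes was not tested. Removing the filter on low values or limma's trend and robust moderation turned no member. With 4 libraries a group and ranges of 3 on the log2 scale, differences in Hspa1a, Hspa1b, Nr4a3 and Fosl2 have intervals more than 2.5 wide.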
